A study of Homo sapiens with 16 samples.

Results

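Extracellular vesicles (EVs) of MDA-MB-231 cells, a breast cancer cell line, were compared with the cells that shed them in 3 classes of small RNA. Of the 16 libraries of the series, 8 belonged to this comparison: 6 EV libraries and 2 libraries of cell RNA. The EV libraries came from conditioned medium of unmodified, serum-starved cells by 3 methods with 2 libraries each, namely next-gen ATPS (an aqueous 2-phase system of PEG and dextran), ultracentrifugation (UC, labelled VC) and the exoRNeasy column kit. TRIzol was used for the RNA of EVs from the first 2 methods, and total RNA of the donor cells was sequenced beside them. The other 8 libraries are the same 4 groups of PC3 (a line from prostate cancer). They enter here for the spread of the model, for the choice of the species tested and for the difference between the lines. Nothing in the labels says whether the 2 libraries of a group were grown as separate cultures. The p-values therefore cover the variation among these libraries alone, and that may be technical. An SD over the 6 EV libraries also holds differences between the 3 methods, and the permutation tests treat the 6 alike.

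EVs are membrane-bound particles that cells release, and their RNA is mostly short or fragmented. Mature miRNAs are excised from a hairpin precursor and guide Argonaute proteins to mRNAs through the seed, bases 2 to 8 from the 5′ end. Small nucleolar RNAs (snoRNAs) work in the nucleus, where the C/D box family guides 2′-O-methylation and the H/ACA box family guides pseudouridylation of ribosomal RNA, and the U3 snoRNAs act in cleavage of the rRNA precursor. Reads of 18 to 35 bases cover a mature miRNA whole but only a fragment of a miRNA hairpin, of a snoRNA or of a circular RNA. Each value is a share of 1 RNA class in 1 library, in counts per 1e6 reads of that class (called TPM in the files), so a species that takes a large share lowers all others of its class. Levels of different species were not compared per length, because the unit holds no length term.

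The second cell library was shallow. It held 153 miRNA reads, against 44370 in cell replicate 1 and 1982 to 26726 in the EV libraries. It held 16635 snoRNA reads, against 3900437 in cell replicate 1 and 43868 to 400429 in the EV libraries. A single read was thus worth 6536 miRNA TPM in cell replicate 2 and 22.5 TPM in cell replicate 1. The miRNA fit therefore left out cell replicate 2 and assumed that the lone cell library varied like the other groups. The snoRNA and circRNA fits kept it, and the other choice stands beside the counts and the calls that it changed. Of the 5 most abundant miRNA entries of cell replicate 1, 4 had a share there that lay inside the interval of the shallow library, and 1 did not. hsa-miR-222-3p took 30 of its 153 reads, 19.6% with an exact 95% binomial interval of 13.6% to 26.8%, against 25.3% (24.9% to 25.7%) in cell replicate 1, while hsa-miR-30a-5p took 2.61% (0.717% to 6.56%) against 7.52% (7.28% to 7.77%). These intervals cover counting error only. The 6 miRNAs taken as markers of basal or mesenchymal-like breast cells made up 27.9% and 20.9% of miRNA TPM in the cells and 9.40% ± 4.90 (SD, n = 6) in the EVs. One of them, hsa-miR-31-5p, had no read in cell replicate 1 or in the EVs. Of the luminal markers 3 had an entry, and they summed to 0.0135% in cell replicate 1, to no read in cell replicate 2 and to at most 0.00748% in an EV library.

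The sequences of the species on which the miRNA comparison turned are given first, as RefSeq lists them on GRCh38.p14, 5′ to 3′, with the seed in capitals. The first 4 were higher in EVs, the next 2 were lower, and the last 2 were abundant in both materials. hsa-miR-663b lies within an intron of ANKRD30BL at chr2:132256970-132256991 (minus strand), hsa-miR-4488 at chr11:61508599-61508616 (plus strand), and hsa-miR-27a-5p at chr19:13836487-13836508 with hsa-miR-23a-3p at chr19:13836595-13836615, both on the minus strand within the lncRNA MIR23AHG. hsa-miR-222-3p lies at chrX:45747036-45747056 (minus strand) within an intron of MIR222HG. The positions found here for hsa-miR-7-5p, which may not be all, were chr9:83969811-83969834 within HNRNPK and chr19:4770700-4770723. hsa-miR-30a-5p lies at chr6:71403595-71403616 and hsa-miR-21-5p at chr17:59841273-59841294 within VMP1. No seed was shared by any of these 8.
hsa-miR-663b: gGUGGCCCggccgugccugagg
hsa-miR-4488: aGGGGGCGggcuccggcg
hsa-miR-27a-5p: aGGGCUUAgcugcuugugagca
hsa-miR-23a-3p: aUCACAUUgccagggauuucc
hsa-miR-222-3p: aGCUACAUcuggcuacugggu
hsa-miR-7-5p: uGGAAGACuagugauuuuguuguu
hsa-miR-30a-5p: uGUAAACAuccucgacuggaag
hsa-miR-21-5p: uAGCUUAUcagacugauguuga

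Several leading entries were not mature miRNAs but whole hairpins, to which the authors' annotation assigned reads separately. Their sequences are printed with the mature arms listed by RefSeq in capitals. They are shown because hsa-mir-21 and hsa-mir-27a rose in EVs while hsa-mir-1291 fell. hsa-mir-21 (chr17:59841266-59841337) lies within VMP1, hsa-mir-27a at chr19:13836440-13836517, and hsa-mir-1291 (chr12:48654444-48654530) lies within an intron of KANSL2 and overlaps the snoRNA gene SNORA2C. Reads of hsa-mir-1291 and of the snoRNA cannot be told apart over the shared bases. No sequence is printed for hsa-mir-7641-2.
hsa-mir-21: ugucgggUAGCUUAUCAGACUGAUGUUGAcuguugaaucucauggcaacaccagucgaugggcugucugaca
hsa-mir-27a: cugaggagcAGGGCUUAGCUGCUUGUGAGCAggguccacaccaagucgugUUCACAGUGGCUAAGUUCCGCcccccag
hsa-mir-1291: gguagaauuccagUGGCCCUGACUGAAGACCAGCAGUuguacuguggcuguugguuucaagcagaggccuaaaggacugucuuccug

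Mature miRNA names held a smaller share of miRNA reads in EVs than in cells. The share was 36.2% and 43.7% for ATPS, 44.6% and 44.6% for UC, 54.5% and 60.5% for exoRNeasy, and 74.4% and 67.3% in cells. The 6 EV libraries all lay below both cell libraries, with means of 47.3% ± 8.67 (SD, n = 6) and 70.9% ± 5.01 (SD, n = 2). The single hairpin entry hsa-mir-7641-2 held 158426 to 445305 TPM in EVs and 3110 and 6536 in cells, and counts against the mature share. The mature share without that entry was not computed, so a fall across the other entries is not shown. In PC3 the order was the opposite, with 54.3% to 55.1% in cells and 70.7% to 81.6% in EVs. H/ACA box snoRNAs took 4.62% ± 1.04 (SD, n = 6) of snoRNA TPM in EVs and 0.735% and 0.565% in cells, and C/D box snoRNAs took 94.2% ± 1.63 in EVs and 98.8% and 99.1% in cells. The 10 most abundant species took 70.5% to 78.5% of miRNA TPM in EVs and 67.6% and 67.3% in cells, but 59.1% to 69.3% of snoRNA TPM in EVs and 71.7% and 72.2% in cells. For each of these shares the EV and cell libraries did not overlap, and the exact two-sided permutation test over the 8 libraries gave p = 0.0714, the smallest that its 28 arrangements allow. Without cell replicate 2 the shares were not tested, and the difference in the mature share was -27.1 rather than -23.5 percentage points.

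**Figure D1:**
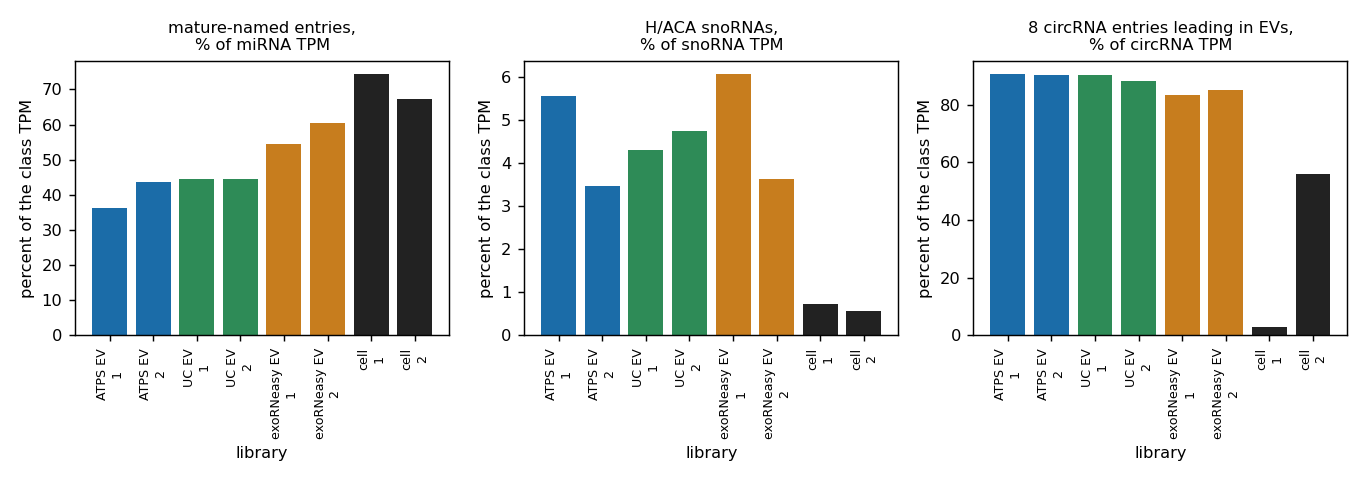
Percent of the class TPM (vertical axes, starting at 0) in each of the 8 MDA-MB-231 libraries (horizontal axes), for mature-named miRNA entries, H/ACA box snoRNAs and the 8 circRNA entries most abundant in EVs; each bar is 1 library. The EV bars lie below both cell bars for mature names (36.2% to 60.5%) and above both for H/ACA snoRNAs (3.46% to 6.07%), while in circRNA the cell libraries differ from each other (2.77% and 56.1%).

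The balance between the classes also differed. Cell replicates 1 and 2 held 87.9 and 109 snoRNA reads for each miRNA read, and the EV libraries held 6.33 to 22.9. Sums over circRNA entries were 549 and 1702 for each miRNA read in cells and 9021 to 104714 in EVs. The circRNA sums themselves were 207543545 to 399175147 in the EV libraries and 24363924 and 260466 in cells. Whether a read enters them more than once was not tested, so they are not taken as numbers of distinct reads.

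Most of the RNA content of EVs was found in cells too, as far as the depth allowed. Of 570 miRNA entries with a read in any EV library, 293 (51.4%) also had a read in cells, which was 78.1% of the entries found in cells. The entries shared with cells held 91.4% to 98.8% of the miRNA TPM of each EV library. For snoRNA 299 species were shared, 83.5% of 358 in EVs and 98.03% of 305 in cells. For circRNA 43895 entries were shared, 41.5% of 105757 in EVs and 95.8% of 45809 in cells. With at least 3 reads required, the shared part of the EV list was 70.7% for miRNA and 24.7% for circRNA. Cell replicate 2 added few species, and leaving it out gave 51.4%, 83.5% and 41.4% for the 3 classes.

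Numbers of species per library depended on how depth was treated. The EV libraries held 167 to 357 miRNA entries, all fewer than cell replicate 1, but after thinning to 1982 reads the expected numbers were 121 to 167 in EVs and 131 in cell replicate 1. For snoRNA, 250 to 327 species in EVs stood against 305 in cell replicate 1, and after thinning to 43868 reads 250 to 278 stood against 174. The EV libraries thus spread the same number of snoRNA reads over more species. For circRNA the order turned the other way, from 38670 to 74908 entries in EVs against 45709. After thinning to a sum of 24363924, it was 8810 to 25754 against 45709. A read may enter the circRNA sums more than once, which was not tested, so equal sums need not be equal depth. The numbers of species carry no test, since cell replicate 2 was too shallow to thin to.

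Levels of single species were compared with limma on log2(TPM + 1), as the mean of the 3 EV methods minus cells, with Benjamini-Hochberg adjustment over all species tested in a class and a threshold of 0.05. Fold changes are on that scale. Where a read was worth less than 1 TPM, as for snoRNA in cell replicate 1 (0.256), it understates the change of low species. A read was worth far more for miRNA in cell replicate 1 (22.5) and for snoRNA in cell replicate 2 (60.1). There a library with no read can overstate the change. For hsa-miR-663b the log2 difference was 13.44 here and lay between 6.82 and 13.57 over the alternatives. Of 566 miRNA entries 13 (2.3% of those tested) were higher in EVs and 39 (6.89%) were lower. With cell replicate 2 kept, 15 (2.65%) were higher and 7 (1.24%) were lower, so the count of lower entries depended on that choice. For miRNA, edgeR and DESeq2 throughout also kept cell replicate 2, so they differ from the main fit in the libraries as well as the method. Many of the lower calls rested on few reads: in 21 of the 39, no EV library had a read and cell replicate 1 had at most 3. Only 9 of the 39 reached 1000 TPM in cell replicate 1 or in the EV mean, and 10 of the 13 higher entries did. The higher calls also rested on few cell reads: 8 of the 13 had at most 3 reads in cell replicate 1, and 6 had none. Among all 566 entries, 369 had at most 3 reads there. Across all 566 entries the median difference was -0.17, and it lay between -1.29 and 0.88 over the alternatives. The species tested were chosen over the libraries of both lines. Of the 566 entries, 60 had no read in any MDA-MB-231 library.

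The largest gain by TPM was that of hsa-mir-7641-2, an entry for a hairpin that is known to resemble ribosomal RNA. Its level was 445305 and 376931 TPM with ATPS, 356005 and 329529 with UC, 189316 and 158426 with exoRNeasy, and 3110 and 6536 in cell replicates 1 and 2, the last from 1 read. Every EV library lay above both cell libraries, and the exoRNeasy libraries were the lowest of the EVs. The log2 difference was 6.54 ± 0.14 (SE; limma, adjusted p = 8.6e-09), and 6.01 with cell replicate 2. It was the most abundant miRNA entry in 5 of the 6 EV libraries, the exception being exoRNeasy replicate 2, where hsa-miR-30a-5p was higher. In the list of 37 entries that overlap rRNA, tRNA, other non-coding RNA or repeats, it accounted for most of the 24.6% to 49.8% of miRNA TPM held in EVs, against 10.9% and 14.4% in cells. Of the 32 members tested, 3 were higher, 3 lower and 26 not called, against 2.3% higher and 6.89% lower of all miRNA entries. The median of this list was 2.24, or 1.06 over the 27 members that could be given a value once those without a cell read were set at 3 reads.

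hsa-miR-663b, another member of that list, had no read in either cell library. It reached 12373 and 21009 TPM with ATPS, 2062 and 2956 with UC, and 31723 and 37841 with exoRNeasy, so the methods did not overlap and UC EVs were lowest. Set against 3 reads in cell replicate 1 (67.6 TPM), the EV mean was at least 266-fold higher (limma adjusted p = 1.8e-07). hsa-miR-4488 also had no cell read and held 786 to 7163 TPM in EVs, at least 54.5-fold higher by the same floor (adjusted p = 0.020).

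The hairpin entry hsa-mir-21 rose while the mature miRNA from it did not pass the test. hsa-mir-21 held 94010 and 70855 TPM with ATPS, 96644 and 100501 with UC, 99877 and 76690 with exoRNeasy, 5296 in cell replicate 1 and no read in cell replicate 2. The methods overlapped, and the log2 difference was 4.07 ± 0.20 (SE; limma, adjusted p = 3.4e-06). hsa-miR-21-5p, a much studied oncogenic miRNA, held 41050 and 30484, 33239 and 20392, and 66517 and 58527 TPM in the same order of methods, and 20442 and 32680 in cells. Its libraries overlapped between EVs and cells, and its difference of 0.92 ± 0.25 had an adjusted p of 0.056 in limma, or 0.038 in edgeR. The third entry of the miR-21 list, hsa-miR-21-3p, was not called, and the list summed to 10.2% to 16.6% of miRNA TPM in EVs and 2.61% and 3.27% in cells.

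Entries of the cluster of miR-23a, miR-27a and miR-24 in MIR23AHG were among the higher ones. hsa-miR-27a-5p, the less used arm of its hairpin, held 4625 and 7003 TPM with ATPS, 687 and 449 with UC, and 14122 and 17659 with exoRNeasy, against 1 read (22.5 TPM) in cell replicate 1 and none in replicate 2. The 3 methods did not overlap, in the same order as for hsa-miR-663b. The EV mean was 329 times the level of cell replicate 1, with an exact Poisson interval for that read of 59.1 to 13011 and an adjusted p in limma of 9.6e-06. The other arm, hsa-miR-27a-3p, held 505 to 5355 TPM in EVs and 3133 in cell replicate 1 and was not called (adjusted p = 0.57). The hairpin entry hsa-mir-27a had no cell read and held 74.8 to 6054.5 TPM in EVs (adjusted p = 0.021, and 0.058 with the MDA-MB-231 libraries alone). hsa-miR-23a-3p rose by 2.07 ± 0.43 (adjusted p = 0.022), from 1488 TPM in cell replicate 1 to 4036 to 9005 in EVs, and was called neither by DESeq2 nor with the MDA-MB-231 libraries alone. In all, 3 of the 15 entries of the miR-23, miR-27 and miR-24 families were higher and 1 lower, with a median of -0.12. Of all miRNA entries, 2.3% were higher and 6.89% lower.

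The other higher entries past the rule for naming were hsa-let-7f-1 (2.71 ± 0.49, adjusted p = 0.014), a hairpin of the let-7 family that restrains growth genes, and hsa-mir-1248 (2.37 ± 0.56, adjusted p = 0.033), which overlaps SNORA81 within EIF4A2. In EVs they held 1041 to 2865 and 1041 to 2345 TPM, and in cell replicate 1 they held 270.5 and 293 TPM. Neither was called under quantile normalization or by DESeq2, and hsa-mir-1248 lost its call in 6 of 17 alternatives, among them the MDA-MB-231 libraries alone (0.094) and leaving out ATPS replicate 2 or exoRNeasy replicate 2 (both 0.051). Of the 25 let-7 and miR-98 entries tested, 1 was higher, 1 lower and 23 not called, against 2.3% higher and 6.89% lower of all miRNA entries. The median of the 25 was 0, or -0.57 with members that lacked a cell read set at the floor.

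**Figure D2:**
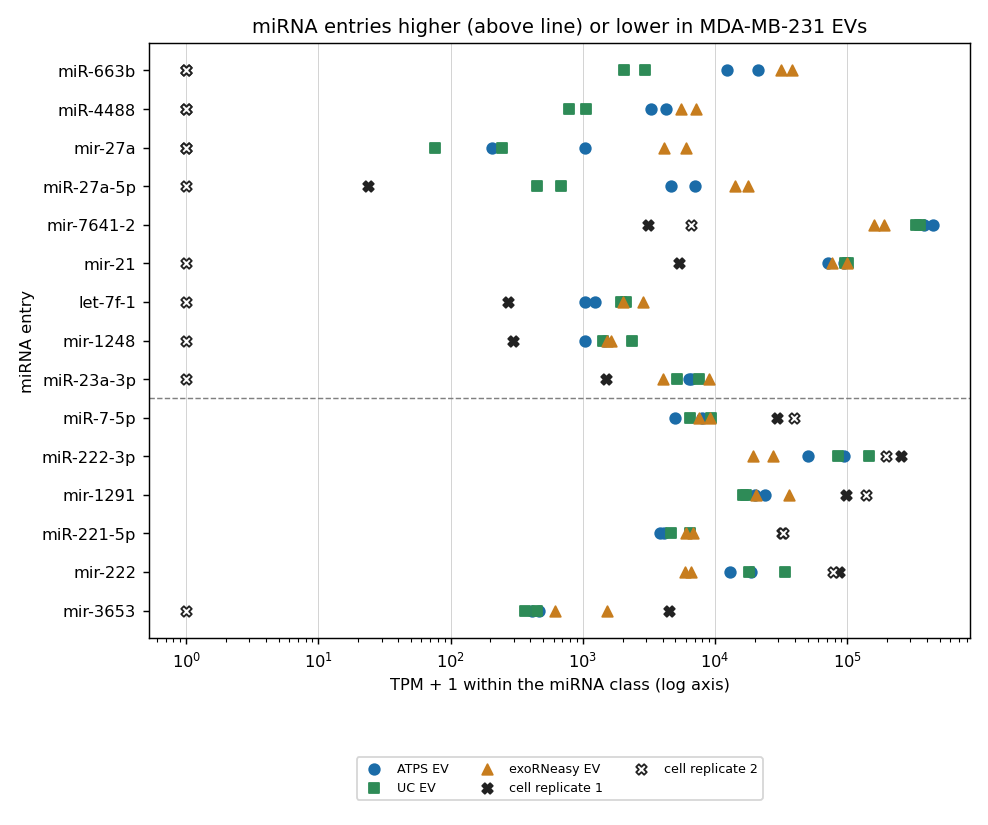
TPM + 1 within the miRNA class (horizontal log axis) of the 15 entries named by rule (vertical axis), above the dashed line those higher and below it those lower in EVs; each point is 1 library, and points at 1 are libraries with no read. The 6 EV points lie above both cell points for the upper 9 entries and below cell replicate 1 for the lower 6, and cell replicate 2 has no read for 9 of the 15.

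The lower entries were led in abundance by the miR-221 and miR-222 cluster, which targets cell-cycle inhibitors and is typical of basal breast cancer cells. hsa-miR-222-3p held 252941 and 196078 TPM in cells, 50069 and 95160 with ATPS, 84998 and 146337 with UC, and 19443 and 27245 with exoRNeasy. All EV libraries lay below both cell libraries, and the difference was -2.17 ± 0.43 (limma, adjusted p = 0.021; edgeR 0.052). Its hairpin entry hsa-mir-222 changed by -2.69 ± 0.45 (adjusted p = 0.0088), from 86568 and 78431 TPM in cells to 5935 to 34012 in EVs. hsa-miR-221-5p changed by -2.64 ± 0.55 (adjusted p = 0.022), from 32297 and 32680 TPM to 3816 to 6754. The whole cluster took 38.6% and 31.4% of miRNA TPM in cells and 10.8% ± 5.17 (SD, n = 6) in EVs. Of its 6 entries 3 were lower, against 6.89% of all miRNA entries, and 3 were not called, with a median of -1.64. Among the 3 not called, hsa-miR-221-3p held 9759 TPM in cell replicate 1 and 2251 to 8239 in EVs (adjusted p = 0.27). The hairpin entry hsa-mir-221 held 3967 TPM in cell replicate 1 and 3761 to 32337 in EVs, 5 of 6 above the cell value (adjusted p = 0.19). hsa-miR-222-5p had no read in cell replicate 1 and 418 TPM in the EV mean.

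hsa-mir-1291 held 97656 and 137255 TPM in cells and 16202 to 36327 in EVs, a difference of -2.19 ± 0.28 (limma, adjusted p = 0.0036). hsa-miR-7-5p, which is known to target EGFR, held 29232 and 39216 TPM in cells and 4943 to 9300 in EVs (-1.98 ± 0.34, limma adjusted p = 0.011, edgeR 0.058). For both entries the EV and cell libraries did not overlap. hsa-mir-3653, another entry that overlaps other non-coding RNA, held 4485 TPM in cell replicate 1 and 364 to 1514 in EVs (-3.01 ± 0.66, adjusted p = 0.028), but with cell replicate 2, where it had no read, the value was 3.05 and was not called. With only the MDA-MB-231 libraries in the fit, of these 6 lower entries only hsa-miR-221-5p was called.

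Abundant miRNAs that did not pass the test included hsa-miR-30a-5p, with 42131 to 162967 TPM in EVs and 75208.5 and 26144 in cells (0.20 ± 0.46, adjusted p = 0.89). hsa-miR-425-5p held 12720 to 65086 TPM in EVs and 34979 and 26144 in cells (-0.54 ± 0.15, adjusted p = 0.064). In both, exoRNeasy EVs held more than the other EVs. The EV libraries spanned both cell values for hsa-miR-425-5p but only that of cell replicate 1 for hsa-miR-30a-5p. The miR-30 list summed to 7.91% to 20.4% of miRNA TPM in EVs and 13.5% and 13.7% in cells. Of its 14 entries 1 was lower, against 6.89% of all miRNA entries, and 13 were not called.

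Few members of the remaining miRNA lists were called, and the counts are read against 2.3% higher and 6.89% lower among all entries. Of the 566 entries tested, 483 had no read in some EV library, so the size of the list medians depends on the added 1. The miR-17~92 list had 1 higher of 24 (hsa-mir-19a, adjusted p = 0.044, not called under 9 of 17 alternatives), with a median of -2.67. The list of miR-99, miR-100 and miR-125 had 1 lower of 12 with a median of -3.06, and its most abundant member hsa-miR-100-5p held 6345 to 14144 TPM in EVs and 12260.5 in cell replicate 1 (adjusted p = 0.90). Of 6 entries for miR-182, miR-183 and miR-96 none was called, and hsa-miR-182-5p held 15610.5 to 71645 TPM in EVs and 19089.5 in cell replicate 1 (limma adjusted p = 0.20, edgeR 0.044). None of 9 miR-29 and none of 10 miR-320 entries was called, with medians of -1.34 and 2.19, or -2.67 and 1.11 with members lacking a cell read at the floor. For miR-103a and miR-107, 1 of 5 was lower: hsa-miR-103a-3p held 17061 TPM in cell replicate 1 and 3532 to 9179 in EVs (-1.59, adjusted p = 0.044), and it was called in only 6 of 17 alternatives, not with cell replicate 2 (0.13), the replicate block (0.075), centring (0.10), quantile normalization (0.27) or edgeR (0.30), nor without ATPS replicate 1 (0.054) or 2 (0.075), UC replicate 2 (0.056) or exoRNeasy replicate 2 (0.068). The 6 basal markers had 1 lower, hsa-miR-222-3p, and a median of -0.70. Of the 4 miR-200 entries tested 1 was lower, hsa-miR-200c-3p, which had 1 read in cell replicate 1 and none in EVs and is also 1 of the 3 luminal markers.

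Markers of cells that the cultures should not hold stayed near 0. The list for blood cells, endothelium and liver had 2 entries with reads, 1 of them called lower from a single cell read (hsa-mir-126), and summed to 0.0270% of miRNA TPM in cell replicate 1 and 0.0187% to 0.101% in EVs, of which hsa-miR-486-5p held 187 to 1009 TPM in EVs. The neuron list had 4 entries tested, none called, and at most 0.0412% in an EV library. The muscle list had no entry in the tables used here. The part of such RNA in the EV values was not tested.

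The letters GGAG, CCCU and GGCU, read on the given strand of mature miRNAs, were counted because such short motifs have been discussed for EV loading. A mature sequence was listed for 265 of the 566 entries tested. GGAG was present in 0 of 6 higher and 4 of 25 lower miRNAs, against 11.3% of the 265. CCCU was present in 0 of 6 higher and 3 of 25 lower miRNAs, against 9.81%. GGCU was present in 2 of 6 higher and 9 of 25 lower miRNAs, against 19.6%. These are descriptions of few sequences and carry no test.

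More snoRNAs passed the test than miRNAs. Of 357 snoRNAs 147 (41.2%) were higher in EVs and 19 (5.32%) were lower, and without cell replicate 2 the higher ones were 30% and the lower ones 12 (3.36%). This balance depended on the scaling. The median over all snoRNAs was 1.56 in the main fit, 0.48 after centring on species common to all libraries, -0.55 after quantile normalization and 0.00 in DESeq2, whose calls were 105 and 72, 60 and 82, and 90 and 89 higher and lower. Values near 1 are therefore not separated from a shift of the whole class, while all 20 snoRNAs named by rule kept their direction under all 18 alternatives. Of the 147 higher snoRNAs, 30 reached 1000 TPM in EVs or cell replicate 1, and of the 19 lower ones 18 did.

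The sequences below are from GENCODE v44 on hg38, and they show a U3 copy and an H/ACA snoRNA that were much higher in EVs and 3 C/D box snoRNAs that were lower. In the latter the first TGATGA (C box) and the last CTGA (D box) are in capitals where those letters were found. SNORD3E lies at chrX:70846080-70846295 (minus strand) within an intron of TEX11, SNORA66 at chr1:92840719-92840851 (plus strand) within an intron of the ribosomal protein gene RPL5, and SNORD58A at chr18:49491283-49491347 (minus strand) within RPL17. SNORD99 lies at chr1:28578749-28578822 (minus strand) within an intron of the lncRNA SNHG12, and SNORD102 at chr13:27255064-27255135 (plus strand) within RPL21.
SNORD3E: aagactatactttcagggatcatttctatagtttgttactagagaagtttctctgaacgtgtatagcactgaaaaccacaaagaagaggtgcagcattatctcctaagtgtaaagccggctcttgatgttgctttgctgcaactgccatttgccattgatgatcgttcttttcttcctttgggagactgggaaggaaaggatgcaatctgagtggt
SNORA66: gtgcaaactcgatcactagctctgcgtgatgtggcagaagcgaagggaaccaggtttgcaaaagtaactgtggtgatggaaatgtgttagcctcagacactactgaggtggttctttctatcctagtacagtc
SNORD58A: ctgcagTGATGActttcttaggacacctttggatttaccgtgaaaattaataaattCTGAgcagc
SNORD99: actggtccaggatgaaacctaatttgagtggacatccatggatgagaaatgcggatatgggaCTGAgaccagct
SNORD102: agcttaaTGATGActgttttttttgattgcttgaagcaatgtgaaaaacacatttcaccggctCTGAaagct

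The 2 largest differences among the named snoRNAs were those of the U3 entries SNORD3E and U3. SNORD3E held 7675 and 3842 TPM with ATPS, 3584 and 2854 with UC, 20949 and 4924 with exoRNeasy, 1.54 TPM (6 reads) in cell replicate 1 and no read in cell replicate 2. Replicate 1 of exoRNeasy was the highest library in each U3 entry named here. The difference was 11.78 ± 0.53 (SE; limma, adjusted p = 3.2e-10), or 11.11 without cell replicate 2. The entry U3 held 2919 to 21824 TPM in EVs and 5.38 in cell replicate 1 (11.18 ± 0.62, adjusted p = 3.1e-09), and SNORD3C held 5631 to 23271 TPM in EVs and 148 and 60.1 in cells (6.46 ± 0.43, adjusted p = 1.7e-08). SNORD3A, SNORD3B-1 and SNORD3B-2, at 5502 to 26584 TPM in EVs and 229 to 250 in cell replicate 1, rose by 5.78 to 5.84. SNORD3E shares a run of 32 identical bases with SNORD3A, SNORD3B-1, SNORD3B-2 and SNORD3C, which is within the range of read lengths, so the split of reads among the copies is uncertain. Of the 17 tested members of the list of snoRNAs in pre-rRNA cleavage, 13 were higher, 1 lower and 3 not called, against 41.2% higher and 5.32% lower of all snoRNAs, with a median of 4.31, and the list summed to 0.446% and 0.481% of snoRNA TPM in cells and 3.24% to 13.6% in EVs. Its median stayed above 0 after quantile normalization (1.33) and centring (3.23), and without cell replicate 2 there were 12 higher and 0 lower.

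Of the other 8 snoRNAs named as higher, 7 were H/ACA box members. SNORA66 held 7477 and 4646 TPM with ATPS, 2705 and 4533 with UC, 4206 and 4217 with exoRNeasy and 13.3 TPM in cell replicate 1, and the EV methods overlapped. Its difference was 10.19 ± 0.66 (limma, adjusted p = 1.7e-08), or 8.27 without cell replicate 2, where a read was worth 60.1 TPM and SNORA66 had none. SNORA58 (10.31 ± 0.67) and SNORA58B (10.20 ± 0.55) held 603 to 8331 and 1105 to 4206 TPM in EVs and 4.36 and 2.56 in cell replicate 1. SNORA50 (509 to 2512 TPM in EVs, 4.36 in cell replicate 1) and SNORA50C had equal values in every library but ATPS replicate 2, so they are not separate observations. SNORA79 and SNORA3A rose by 7.82 ± 0.90 and 7.42 ± 0.93, or 5.62 and 4.75 without cell replicate 2. Of the H/ACA snoRNAs tested 66 were higher, 0 lower and 67 not called, and of 212 C/D box snoRNAs 75 were higher, 19 lower and 118 not called, against 41.2% higher and 5.32% lower of all snoRNAs. Without cell replicate 2 these were 46 higher for H/ACA, and 57 higher and 12 lower for C/D box snoRNAs. The medians were 3.20 and 0.86 in the main fit, 2.29 and 0.47 without cell replicate 2, and -0.11 and -0.64 after quantile normalization. SNORA66, SNORA58, SNORA71D and SNORA44 were the most abundant H/ACA members in EVs.

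The 19 snoRNAs that fell were all C/D box members, and 18 of them reached 1000 TPM. SNORD58A held 31146 and 31921 TPM in cells, 10445 and 17730.5 with ATPS, 7432 and 14017 with UC, and 9930 and 16550 with exoRNeasy. All 6 EV libraries lay below both cells, and the difference was -1.38 ± 0.26 (limma, adjusted p = 0.00040), or -1.36 without cell replicate 2. SNORD58B, from the same host gene, changed by -1.17 ± 0.26. SNORD99 held 8324 and 9738.5 TPM in cells and 2922 to 4548 in EVs (-1.32 ± 0.21), and SNORD102 held 9838 and 10760 in cells and 4527 to 5519 in EVs (-1.03 ± 0.16). SNORD4B and SNORD42A, both within RPL23A, changed by -1.50 ± 0.36 and -1.34 ± 0.26, and SNORD65 within the lncRNA SNHG29 by -1.22 ± 0.28. SNORD101 within RPS12 (-1.02), SNORD43 within RPL3 (-0.87) and SNORD5 within TAF1D (-0.88) completed the 10. All 10 had an adjusted p of at most 0.0077 in limma with cell replicate 2, and without it 9 were called, the exception being SNORD5 (adjusted p = 0.11). After quantile normalization SNORD101 (-0.49, adjusted p = 0.16) and SNORD43 (-0.38, 0.14) were not called, nor was SNORD101 without cell replicate 1 (0.088) or SNORD5 with the MDA-MB-231 libraries alone (0.061).

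**Figure D3:**
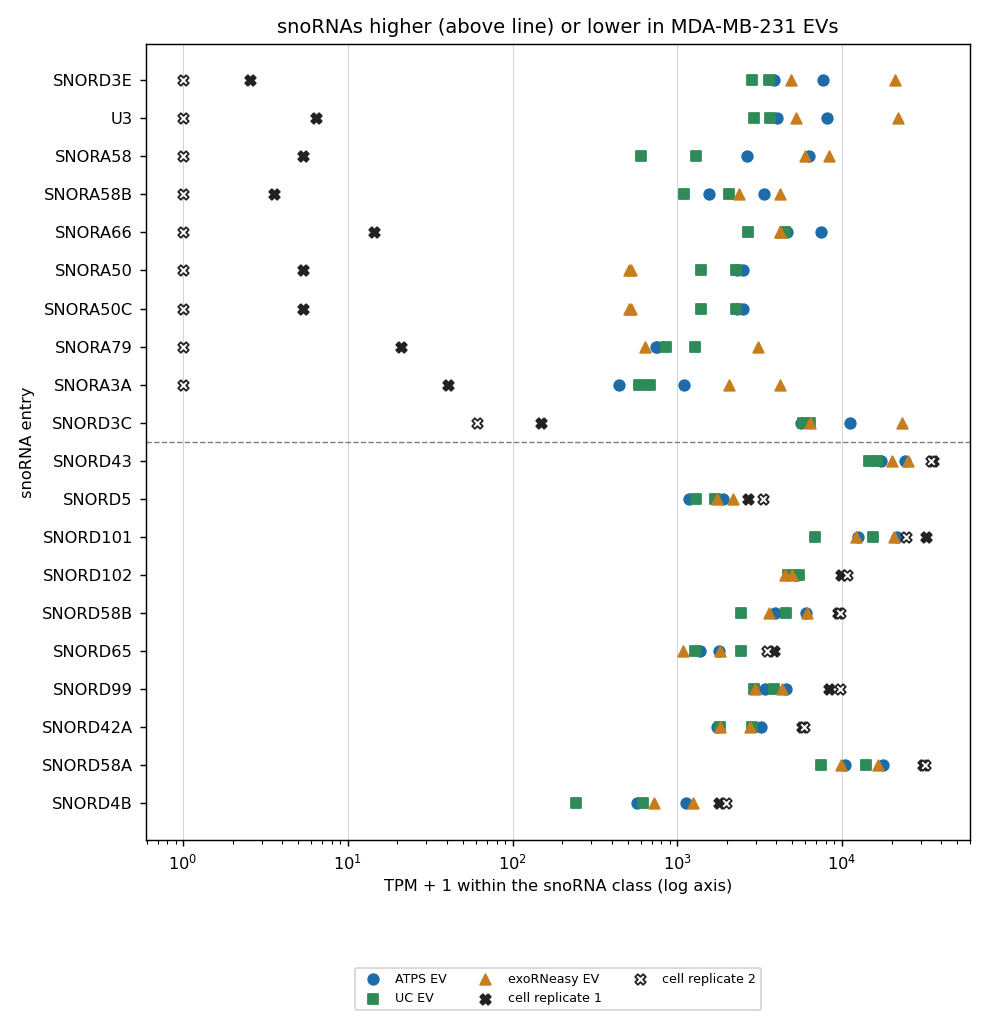
TPM + 1 within the snoRNA class (horizontal log axis) of the 20 snoRNAs named by rule (vertical axis), above the dashed line those higher and below it those lower in EVs; each point is 1 library, and points at 1 are libraries with no read. The upper 10 lie far above the cells in all 6 EV libraries, and cell replicate 2 has a read for SNORD3C alone, while the lower 10 differ from cells by a log2 difference of -0.87 to -1.50.

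Of the 5 most abundant snoRNAs of EVs, 4 were also among the 5 most abundant of cells. SNORD2, within EIF4A2 at chr3:186784796-186784864, held 138198 to 258810 TPM in EVs and 152462 and 182387 in cells (0.22 ± 0.19, adjusted p = 0.37). SNORD49A, within SNHG29 at chr17:16440036-16440106, held 107088 to 224759 TPM in EVs and 259896 and 226090 in cells. Its difference of -0.65 ± 0.23 passed in the main limma fit (adjusted p = 0.030). It did not pass with the MDA-MB-231 libraries alone (0.11), with no filter on low values (0.066) or after quantile normalization (0.053). Nor did it pass when either cell library, ATPS replicate 1 or exoRNeasy replicate 1 was left out. SNORD26 and SNORD30, both in SNHG1, and SNORD18A in RPL4 differed by 0.24, -0.08 and 0.29 and were not called. SNORD63, among the top 5 of cells, held 39381 and 50556 TPM there and 17374 to 34378 in EVs (-0.77 ± 0.19, adjusted p = 0.0037, and 0.096 without cell replicate 2).

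The remaining snoRNA lists were mixed. Of the list of SNORD115 and SNORD116, known from an imprinted locus expressed in neurons, no SNORD115 copy had a read in the EVs or in cell replicate 1. Of the 28 copies tested, 21 were higher and 7 not called, against 41.2% higher of all snoRNAs, with a median of 4.76, and 20 were higher without cell replicate 2. They summed to 0.181% to 0.931% of snoRNA TPM in EVs and 0.0062% and 0.0601% in cells, and SNORD116-17 and SNORD116-19 had the same values, so the copies are not separate observations. None of 20 SNORD113 and SNORD114 copies was called (median 0.48), and 17 of them had no cell read. All 3 scaRNAs tested were higher with cell replicate 2 and 2 of 3 without it, at most 0.0892% of snoRNA TPM. Of the snoRNAs hosted by GAS5, which summed to at most 0.00793% of TPM, 1 of 4 was higher (SNORD78) and none without cell replicate 2 (adjusted p = 0.096), and SNORD78 was at -0.61 after quantile normalization. Of those hosted by SNHG1 1 of 7 was higher and 2 were lower (SNORD25 and SNORD27, -0.76 and -0.59). Without cell replicate 2 SNORD27 was not called (adjusted p = 0.13), and after quantile normalization SNORD25 was not (0.062). Of those hosted by RPL13A 2 of 4 were higher, near the 41.2% of all snoRNAs (SNORD33 and SNORD35A, 1.47 and 1.49, neither called under quantile normalization, centring or DESeq2). Medians of these 3 lists were 1.21, -0.08 and 1.014, against 1.56 over all snoRNAs.

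Among the circRNAs, 8 entries dominated the EVs. They are hsa_circ_0040314 and 7 entries with nearly equal values, so they are not separate observations. hsa_circ_0040314 held 113399 and 112952 TPM with ATPS, 113092 and 110372 with UC, 104436 and 106291 with exoRNeasy, 3461 in cell replicate 1 and 70067 in cell replicate 2. Together the 8 took 88.1% ± 3.09 (SD, n = 6) of circRNA TPM in EVs, 2.77% in cell replicate 1 and 56.1% in cell replicate 2. The cell replicates thus differed from each other by more than the EVs from cell replicate 2, and the difference in share was 85.3 percentage points without cell replicate 2 and 32.02 without replicate 1. Reads that small RNA libraries assign to a circular RNA can come equally from the linear or another RNA of the same sequence, since a read of at most 35 bases rarely crosses a back-splice junction.

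Of 2558 circRNA entries 442 (17.3%) were higher and 860 (33.6%) were lower in EVs by limma. On simulated data this fit, with the shallow cell library kept, also called unchanged entries, so these counts can hold false calls. Of the 442 higher entries 173 had at most 3 reads in cell replicate 1, against 355 of all 2558. Without cell replicate 2, 482 of 2506 (19.2%) were higher and 1676 (66.9%) were lower, so the count of lower entries depended on the shallow library. The balance depended on the scaling, with medians of -0.60 in the main fit and 2.94 after centring, where 1992 were higher and 394 lower, and 832 and 1048 after quantile normalization. By the rule, 41 entries qualified as higher and 112 as lower. The leading higher pair, hsa_circ_0017177 and hsa_circ_0112698, had equal values within rounding, 2936 to 8632 TPM in EVs, 82.3 in cell replicate 1 and 2089 in cell replicate 2 (3.53 ± 0.91, adjusted p = 0.0074, and 5.86 without cell replicate 2). The leading lower entries were hsa_circ_0047664, at 6497 and 2657 TPM in cells and 3.86 to 16.1 in EVs (-8.99 ± 0.30, adjusted p = 4.5e-09), and hsa_circ_0092280, at 15140 and 5356 in cells and 8.62 to 43.2 in EVs (-8.92 ± 0.36, adjusted p = 8.6e-09). For both of these every EV library lay below both cell libraries, and UC EVs held the most among EVs.

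The EV minus cell difference was also tested between the 2 lines in the same fit, which for snoRNA and circRNA kept the shallow cell replicate 2. It differed for 13 of 566 miRNA entries (2.3%), 61 of 357 snoRNAs (17.1%) and 1221 of 2558 circRNA entries (47.7%), the last from the fit that also called unchanged entries on simulated data. Of the 13 miRNA entries 12 had no read in any MDA-MB-231 library, and the other was hsa-mir-7641-2. That entry held 42734 and 47357.5 TPM in PC3 cells and 25300 to 71512 in PC3 EVs, and its EV minus cell difference was larger in MDA-MB-231 (6.54 against 0.17, difference 6.37 ± 0.18, adjusted p = 7.3e-08). Among the named snoRNAs SNORD99 fell in MDA-MB-231 EVs and was higher in PC3 EVs than PC3 cells (-1.32 against 1.48, difference -2.79 ± 0.30, adjusted p = 1.1e-05). Its cell levels were 8324 and 9738.5 TPM in MDA-MB-231 and 1271 and 1253 in PC3. SNORD3E was higher in EVs of both lines, by 11.78 and 6.07. By contrast hsa-miR-663b had no read in the cells of either line and 1929 to 12360 TPM in PC3 EVs. The 8 dominant circRNA entries took 92.1% to 94.6% of TPM in PC3 EVs and 1.57% to 1.64% in PC3 cells, and for hsa_circ_0040314 the difference between the lines was not called (adjusted p = 0.069).

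**Figure D4:**
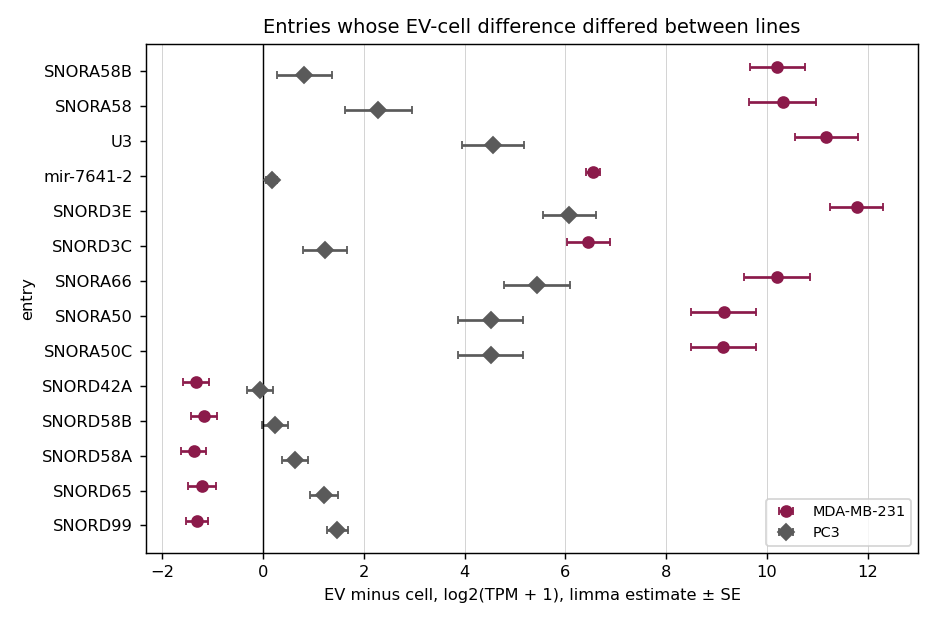
EV minus cell difference on the log2(TPM + 1) scale (horizontal axis; limma estimate with its SE as bars) for the 14 named miRNA and snoRNA entries (vertical axis) whose difference was not the same in both lines, with circles for MDA-MB-231 and diamonds for PC3. The upper 9 entries rose more in MDA-MB-231, by 4.62 to 9.38 on the log2 scale, and the lower 5 were lower in MDA-MB-231 EVs and from -0.06 to 1.48 in PC3. The snoRNA values are from the fit that kept the shallow cell replicate 2.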

How the data were processed

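The study measured small RNA in the libraries described above. In its methods, reads that scored below Q20 in a sliding window (4 bases) were dropped, those of 18 to 35 bases entered the analysis, COMPSRA did the annotation, and multiply aligned reads were weighted. The submitters' processing notes name STAR and hg38. No version of either program is given in the sources used here. The deposited columns carry the name TPM, but they are CPM (counts scaled to 1e6 within each RNA class and library, with no length term): at least 99.9% of values were whole multiples of 1 read within 0.1 read. Depth therefore follows from the files, and the counts recovered from the deposited values set the precision. For circRNA this holds only if no read was counted more than once, which was not tested.

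limma 3.58.1 (trend and robust options) was fitted on log2(TPM + 1) to species that reached 1 TPM in 2 libraries or more of the fit, PC3 included. It estimated a mean per group (8 groups) and averaged the 3 EV methods in the contrast. That step was tested on simulated data, where, with the shallow cell library kept, it also called unchanged circRNA entries. edgeR 4.0.16 and DESeq2 1.42.0 on the recovered reads, other pseudocounts (10 and 100), filters and scalings, a replicate block, the MDA-MB-231 libraries alone and leaving out each library were alternatives. The edgeR and DESeq2 fits used all libraries in each class, cell replicate 2 included. Class shares were compared with exact permutation tests.

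Named species were at most 10 in each direction (2 for circRNA) with the largest change, an adjusted p under 0.05 in limma and in the fit with the other choice of cell libraries or in edgeR, the same direction in all 6 EV libraries against cell replicate 1, and at least 1000 TPM. The 5 most abundant of each material and the 2 to 4 most abundant members of a list were added. The members and the 27 lists were chosen with earlier results of these data known. Sequences came from RefSeq (miRNA) and from hg38 with GENCODE v44 (snoRNA).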

Additional observations from a re-analysis of the deposited data

Results flagged for a closer look

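The EV minus cell difference was not the same in MDA-MB-231 and PC3 for 14 of the named species, by a test of the difference itself in limma. For the snoRNAs the fit kept the shallow cell replicate 2, where a read was worth 60.1 TPM. Of the snoRNAs below that were higher in EVs, only SNORD3C had a read in that library. The MDA-MB-231 values of SNORD3E and SNORA66 were smaller without it, as given above. Differences between the lines without it are not given for single snoRNAs. Each difference between the lines below is MDA-MB-231 minus PC3 on the log2(TPM + 1) scale with its SE, and the adjusted p lay between 7.3e-08 and 0.026. For hsa-mir-7641-2 it was 6.37 ± 0.18, from 6.54 in MDA-MB-231 and 0.17 in PC3.

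Among U3 entries it was 5.71 ± 0.74 for SNORD3E (11.78 and 6.07), 6.62 ± 0.87 for U3 (11.18 and 4.56) and 5.23 ± 0.61 for SNORD3C (6.46 and 1.23). Among H/ACA box snoRNAs it was 8.02 ± 0.94 for SNORA58 (10.31 and 2.29) and 9.38 ± 0.77 for SNORA58B (10.20 and 0.81). It was 4.76 ± 0.93 for SNORA66 (10.19 and 5.44), 4.62 ± 0.92 for SNORA50 and 4.62 ± 0.92 for SNORA50C, the last 2 with 4.51 in PC3.

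The C/D box snoRNAs that were lower in MDA-MB-231 EVs had differences between the lines of -2.02 ± 0.36 for SNORD58A, -1.40 ± 0.36 for SNORD58B, -1.27 ± 0.37 for SNORD42A, -2.79 ± 0.30 for SNORD99 and -2.43 ± 0.40 for SNORD65. In PC3 their EV minus cell values were 0.64, 0.23, -0.06, 1.48 and 1.21 in that order.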

How the results depend on the processing

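Counts of calls moved with several settings, and where no construction shows it the cause was not tested. For miRNA, edgeR and DESeq2 differed from the main fit also in keeping cell replicate 2. For miRNA entries higher and lower in EVs (13 and 39), DESeq2 gave 6 higher, edgeR 27 and 23, no filter on low values 21 and 79, a filter of 10 TPM in 4 libraries 8 and 5, the MDA-MB-231 libraries alone 7 and 1, and keeping cell replicate 2 gave 7 lower. For snoRNAs (147 and 19), DESeq2 gave 90 and 89, quantile normalization 60 and 82, centring 72 lower, edgeR 55 lower and the MDA-MB-231 libraries alone 12 lower. For circRNA (442 and 860), DESeq2 gave 1042 higher, edgeR 1069, quantile normalization 832, no filter 115, the stricter filter 112 and 491, and centring 1992 and 394. Species that differed between the lines numbered 1 (DESeq2, the stricter filter, or cell replicate 2 kept), 3 (edgeR), 2 (pseudocount 100) and 63 (no filter) for miRNA. They numbered 96 for snoRNA with no filter, and 592 (DESeq2), 586 (edgeR), 217 (stricter filter) and 7110 (no filter) for circRNA.

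With at least 3 reads required, 70.7% of EV miRNA entries and 24.7% of EV circRNA entries were also in cells. Thinning to equal reads turned the mean number of species per EV library minus cell replicate 1 from -115 to 10.4 for miRNA and from -8.83 to 93.6 for snoRNA. Thinning to equal circRNA sums, which may count a read more than once, turned it from 12517 to -29640.5. hsa-mir-3653 went from -3.01 to 3.05 with cell replicate 2, where it had no read.

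Leaving out 1 library at a time gave 10 to 21 higher and 25 to 55 lower miRNA entries, with 21 without UC replicate 1 and 25 without exoRNeasy replicate 2, and 16 to 41 that differed between the lines, with 37 and 41 without UC replicates 1 and 2 and 20 without ATPS replicate 2. It gave 107 to 157 higher and 12 to 28 lower snoRNAs, with 12 without cell replicate 2, and 48 to 105 that differed between the lines, with 105 without cell replicate 1. For circRNA it gave 378 to 625 higher, 833 to 1676 lower (1676 without cell replicate 2) and 1084 to 2160 between the lines (2160 without cell replicate 1). The shared part of the EV list was 6.32% to 54.8% for miRNA, 40.2% to 85.1% for snoRNA and 1.44% to 43.2% for circRNA, the lowest each time without cell replicate 1. The number of snoRNA species per EV library minus cell replicate 1 lay between -15 and 0.4, the latter without exoRNeasy replicate 2. The share of the 8 circRNA entries differed by 32.02 to 85.3 percentage points. The miRNA fit without cell replicate 1 was not run, since no cell library was left.

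Replicate numbers were shared between groups, but same-numbered libraries did not deviate together in every pair. Correlations of deviations were -0.04 to 0.07 for miRNA, 0.03 to 0.27 for snoRNA and 0.06 to 0.80 for circRNA, and 0, 4 and 5 of 6 pairs of groups passed 0.1. With the replicate block 10 miRNA entries were higher and 35 lower, 148 snoRNAs higher and 22 lower, and 479 circRNA entries higher and 886 lower.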
